A study of Mus musculus with 27 samples.

Results

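The genes described here encode enzymes that modify and cross-link collagen. They were chosen by name as 10 genes of 2 enzyme families, and 9 of them were measured among 19937 genes. The lysyl oxidase family comprises Lox and its relatives Loxl1 to Loxl4. The collagen hydroxylase genes chosen were Plod1, Plod2, P4ha1, P4ha2 and P4hb. Loxl2 was not analysed here, because its probe set (the group of array probes summarised as 1 value) was also listed with Gm21451. Each of the other 9 had a probe set of its own, and Loxl4 had 2.

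Collagen chains are modified in the endoplasmic reticulum before they are secreted. Prolyl 4-hydroxylase is built from a catalytic alpha subunit (such as P4ha1 or P4ha2) and the protein disulfide isomerase encoded by P4hb. It hydroxylates prolines, and this keeps the triple helix stable at body temperature. The lysyl hydroxylases (Plod genes) hydroxylate lysines, which then carry sugars or form cross-links, and both kinds of hydroxylase need oxygen, iron and 2-oxoglutarate. Outside the cell the copper-dependent lysyl oxidases oxidise lysines and hydroxylysines of collagen and elastin, the first step of cross-linking, and several of these genes are known targets of the hypoxia-inducible factor HIF-1.

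The study measured total RNA of 27 mouse samples on Affymetrix arrays, 1 array each. Of the cell samples, 2 were normal neural stem cells (NSCs) labelled WT, and 10 were immortalized lines of such cells, of which lines 3, 28, 31, 59, 95 and 116 were labelled p53 mutant and lines 119, 120, 123 and 331 WT. Normal subcutaneous tissue (SubQ) labelled WT gave 3 further samples, and the remaining 12 were subcutaneous tumors grown from lines 1, 31, 59 and 123, with 3 tumors per line. Tumors of lines 31 and 59 were labelled p53 mutant and those of lines 1 and 123 WT. All samples share 1 host strain label, CB17/ICR-Prkdcscid/IcrCrl, the severe combined immunodeficiency (SCID) strain, and how the lines had been immortalized was not given in the labels used here. Each line was measured once in culture, so a value of a line has no replicate of its own. The labels call the arrays of a group biological replicates. The 10 line arrays carry separate line numbers. For the NSCs, SubQ tissue and tumors of 1 line the labels do not say that arrays came from separate animals or cultures. A p-value thus reflects only how far these samples scatter, which may be technical in those groups.

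Array medians over genes were 7.18 to 7.28 in the lines, 7.25 to 7.27 in the NSCs, 5.66 to 5.75 in the tumors and 5.82 to 5.87 in SubQ tissue. Levels within an array had an SD of 1.77 to 1.87 in lines, 1.63 to 1.79 in tumors and only 0.87 to 1.02 in SubQ tissue, a narrower range. The number of arrays limits the precision. The mean over 9 neural stem cell markers was 10.01 to 10.05 in the NSCs and 7.50 to 8.26 in the lines, where Fabp7 fell by 6.88 and Prom1 by 1.95 on the log2 scale. Of these 9 markers 5 were called lower and none higher. The stem cell factor Sox2 lay at 8.36 in the lines and 9.68 in the NSCs (limma adjusted p = 0.051). The progenitor filament gene Nes lay at 9.04 and 9.79 (limma adjusted p = 0.50), and neither was called. The mean over 10 fibroblast markers was 6.64 to 6.76 in the NSCs and 7.31 to 8.78 in the lines. Of these markers 3 of 10 were called higher, Pdgfrb and the collagen chains Col1a1 and Col1a2. Of all genes 6.79% were called higher and 8.22% lower. Lum (4.84), Dpt (5.12) and Fap (4.76) lay under the 25th percentile of gene means in the lines (6.17). Thy1 was at 7.92 in the lines against 10.04 in the NSCs and was not called (limma adjusted p = 0.069). The mean over 10 mural cell markers did not overlap either, at 6.94 to 7.08 in the NSCs and 7.64 to 8.40 in the lines, and 2 of these markers rose, the smooth muscle genes Acta2 (5.56) and Tagln (2.60), while 1 fell. The part of these markers in the differences below was not tested.

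Both subunit types of prolyl 4-hydroxylase rose in the lines, as described below. For this reason the DNA just before the start of P4ha1, P4ha2 and P4hb is shown. Promoter sequences were given for 5 of the 10 genes by RefSeq (GRCm38.p6). A form of the 5-letter core of the HIF-1 binding element, ACGTG, was searched on both strands (CACGT on the other strand) in the 250 bases before each start. It was found in P4ha1, P4ha2 and P4hb and not in Plod1 or Loxl4, and 16.6% of 32851 promoters in the table hold it in a window of that length. A match is a description of letters only, and other forms of the core, such as GCGTG, were not searched and are not marked. The last 150 bases before the start are printed 5′ to 3′ on the strand of the gene, with the match in capitals, for P4ha1 (chr10:59323146-59323295, plus strand), P4ha2 (chr11:54100774-54100923, plus strand) and P4hb (chr11:120573254-120573403, minus strand).
P4ha1: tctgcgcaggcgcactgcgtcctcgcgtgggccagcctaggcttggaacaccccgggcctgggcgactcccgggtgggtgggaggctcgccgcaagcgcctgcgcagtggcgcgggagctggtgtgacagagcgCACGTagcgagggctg
P4ha2: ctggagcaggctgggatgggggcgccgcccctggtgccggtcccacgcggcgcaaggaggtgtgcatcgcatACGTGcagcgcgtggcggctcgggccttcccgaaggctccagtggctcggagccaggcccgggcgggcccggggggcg
P4hb: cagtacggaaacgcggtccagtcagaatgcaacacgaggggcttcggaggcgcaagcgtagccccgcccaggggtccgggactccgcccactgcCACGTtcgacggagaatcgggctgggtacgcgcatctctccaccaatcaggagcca
The match begins 16 bases before the start in P4ha1, 78 bases before it in P4ha2 and 56 bases before it in P4hb.

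The enzymes were first compared between the immortalized lines and the NSC cultures. Of the 9 enzymes 7 rose in the lines and none fell (limma, adjusted p under 0.05), where 6.79% of all genes were called higher and 8.22% lower. In 8 of the 9, all but Plod1, every line lay above both NSC cultures, as in 10.1% of all genes. The median change of the 9 genes was 1.42 on the log2 scale, against -0.01 for all genes. The measured difference was widest for Lox (26.3-fold, over a low NSC level), and P4ha1, P4ha2 and P4hb rose between 1.80-fold and 3.72-fold. All values that follow are log2 levels or differences of log2 levels.

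Among the lysyl oxidases, Lox, the founding member of the family, lay at 5.90 and 6.38 in the NSC cultures. In the 10 lines its level ran from 7.99 to 12.41 with a median of 11.26, so that the lowest line still exceeded both cultures. The difference was 4.72 ± 0.99 SE (limma adjusted p = 0.0053). Lines 95 (7.99) and 59 (8.37) stood below the other 8 lines, whose lowest value was 10.63. Lox thus varied more between lines than any other of these genes (SD 1.52, n = 10).

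Loxl4, a family member with scavenger receptor domains, lay at 5.59 and 5.91 in the NSCs and from 6.44 to 9.43 in the lines (median 8.78). The difference was 2.69 ± 0.62 SE (limma adjusted p = 0.0090). Line 116 (6.44) came closest to the NSCs, followed by lines 331 (7.42) and 123 (7.75). The second Loxl4 probe set gave the same order of groups with a smaller difference, 7.50 in the lines against 6.48 in the NSCs, and line 116 was again the lowest of the p53 mutant lines. With the mean of both probe sets the Loxl4 difference was 1.85 (limma adjusted p = 0.017), so its size relative to the other enzymes depends on the probe set. The probe sets correlated at r = 0.95 over the 10 lines.

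Loxl3, which also carries scavenger receptor domains, was measured at 7.06 and 7.22 in the NSCs and at 7.77 to 9.32 in the lines (median 8.54). It rose by 1.48 ± 0.28 SE (limma adjusted p = 0.0024). Loxl1, which acts on elastic fibers, lay at 7.25 and 7.43 in the NSCs and at 7.74 to 9.37 in the lines (median 8.43). Its groups did not overlap, but its difference of 1.13 ± 0.37 SE missed the threshold (limma adjusted p = 0.058). It passed without line 59 (1.21, adjusted p = 0.034) or line 95 (1.19, adjusted p = 0.044) and with the 4 p53 WT lines alone (1.48, limma adjusted p = 0.022), and over the alternatives its adjusted p ran from 0.022 to 0.34.

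The catalytic subunit gene P4ha1 was at 8.70 and 9.11 in the NSCs and at 9.92 to 10.77 in the lines (median 10.29). Its rise of 1.42 ± 0.21 SE had the smallest adjusted p of the 9 genes (limma, 0.00046). P4ha2, the gene of another catalytic subunit, was at 7.02 and 7.20 in the NSCs and at 8.49 to 10.67 in the lines (median 8.78). It rose by 1.89 ± 0.44 SE (limma adjusted p = 0.0097). Line 119 held the highest P4ha2 level, and the other 9 lines lay between 8.49 and 9.57. P4hb, the gene of the shared beta subunit, was at 10.88 and 10.98 in the NSCs and at 11.48 to 12.14 in the lines (median 11.74). It rose by 0.85 ± 0.15 SE (limma adjusted p = 0.0016).

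Of the lysyl hydroxylase genes Plod1 and Plod2, only Plod2 was called in this comparison. Plod2, whose product hydroxylates the telopeptides of collagen, was at 9.48 and 9.81 in the NSCs and at 10.20 to 11.20 in the lines (median 10.53), and rose by 0.93 ± 0.21 SE (limma adjusted p = 0.0087). Plod1, whose product acts on the helical part, was at 8.53 and 8.71 in the NSCs and at 8.55 to 9.59 in the lines (median 9.02). Its groups overlapped and its difference of 0.41 ± 0.28 SE was not called (limma adjusted p = 0.43). Whether the changes of Plod1 and Plod2 differ was not tested.

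**Figure D1:**
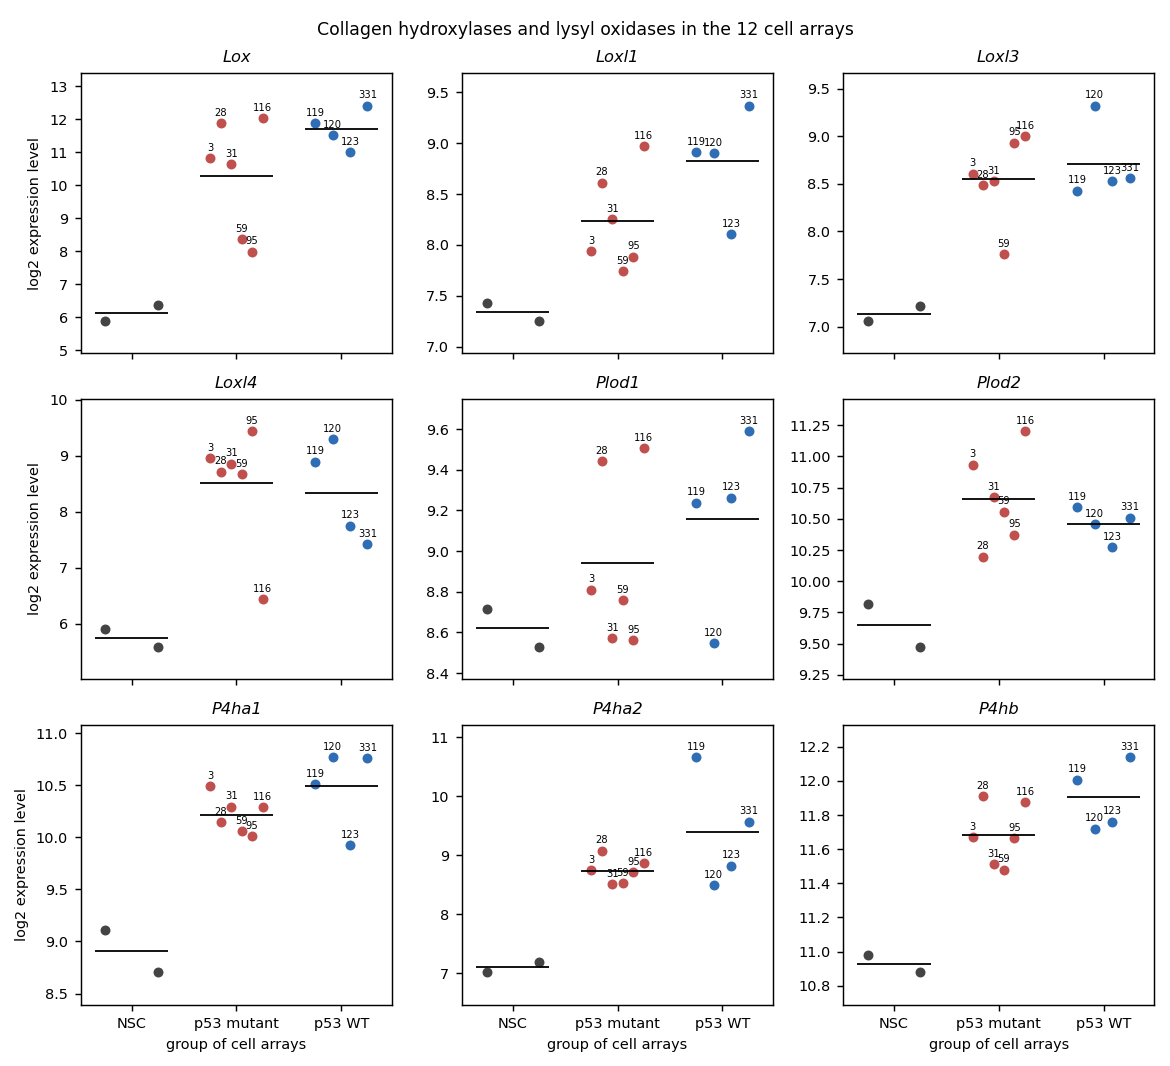
Log2 expression level (y axis, a scale of its own in each panel) of the 9 genes in the 2 NSC cultures and in the p53 mutant and p53 WT lines (x axis). Each point is 1 array, numbers give the line and bars the group mean. Lox is low in lines 59 and 95, Loxl4 in line 116, and P4ha2 is high in line 119.

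The NSC means of Lox (6.14) and Loxl4 (5.75) lay under the 25th percentile of gene means in NSCs (6.21), where signal and background are hard to separate, and the sizes of both rises are uncertain. Leaving out NSC replicate 1 or replicate 2 reduced the count from 7 to 3 each time, and the count over all genes from 2992 to 1416 or 1402. These fits have a single NSC array, which is assumed to vary as the lines do. Without replicate 1 the calls of Lox (4.48), Loxl3 (1.40), Loxl4 (2.85) and P4ha2 (1.80) ended, and without replicate 2 those of Lox (4.96), Loxl4 (2.53), Plod2 (0.76) and P4ha2 (1.98).

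Other genes of collagen assembly were examined as lists. Of 22 measured genes for other collagen enzymes and chaperones, 8 rose and 2 fell (median 0.48). Of all genes 6.79% were called higher and 8.22% lower. P4ha3, the gene of the remaining catalytic subunit of prolyl 4-hydroxylase, rose by 4.02 ± 0.40 SE, from 5.80 in NSCs to 9.82 in the lines, and Pcolce, which enhances the removal of the collagen propeptide, by 3.89. Tll1, a propeptide protease, rose by 2.52, and Colgalt2, which adds galactose to hydroxylysine, fell by 2.31. Plod3, the remaining lysyl hydroxylase gene, rose by 0.72 ± 0.23 SE, to 9.59 from 8.87 (limma adjusted p = 0.049), and was named after its value was seen, as was the collagen chaperone gene Serpinh1 (1.03).

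Of the 25 collagen chains, the substrates of these enzymes, 7 rose and none fell (median 0.55). The largest rises were those of Col12a1 (3.76), Col8a1 (3.38), Col1a2 (3.14) and Col5a2 (1.98). In the elastic fiber list 3 of 14 rose, Ltbp1 (2.58), Fbln5 (1.93) and Ltbp3 (0.91), and none fell, while elastin itself (Eln) differed by -0.17 (limma adjusted p = 0.49). Among 18 folding genes of the endoplasmic reticulum, the group to which P4hb belongs by function, 8 rose and none fell, led by Txndc5 (1.19) and Xbp1 (0.72). In the hypoxia list 2 of 19 rose, Ndrg1 (1.67) and the glucose transporter gene Slc2a1 (0.84), and none fell. This count of rises lay near the share of all genes called higher (6.79%).

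The second comparison asked whether the lines differed by p53 label. None of the 9 enzymes was called by limma, and none had an unadjusted p under 0.05, where 0.0201% of all genes (4 of 19937) were called. The groups did not overlap in 0.667% of all genes with the mutant lines higher and in 1.02% with them lower. All 9 enzymes overlapped. In 7 of them the p53 mutant mean was lower, and in Loxl4 (0.17 ± 0.55 SE) and Plod2 (0.20 ± 0.18) it was higher. The signs of Loxl3 and Loxl4 depended on single lines.

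The widest gap was that of Lox, with a mean of 10.29 ± 1.73 (SD, n = 6) in the mutant lines and 11.70 ± 0.60 (SD, n = 4) in the WT lines, a difference of -1.41 ± 0.79 SE (limma adjusted p = 0.68). Both low lines, 59 and 95, were p53 mutant, but mutant lines 28 (11.89) and 116 (12.03) lay among the WT lines. P4ha2 differed by -0.65 ± 0.35 SE (limma adjusted p = 0.67), and by -0.22 without WT line 119. The fibroblast marker mean was 7.31 to 7.66 in the mutant lines and 7.56 to 8.78 in the WT lines, with its highest values in lines 331 and 119. Its part in these differences was not tested.

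**Figure D2:**
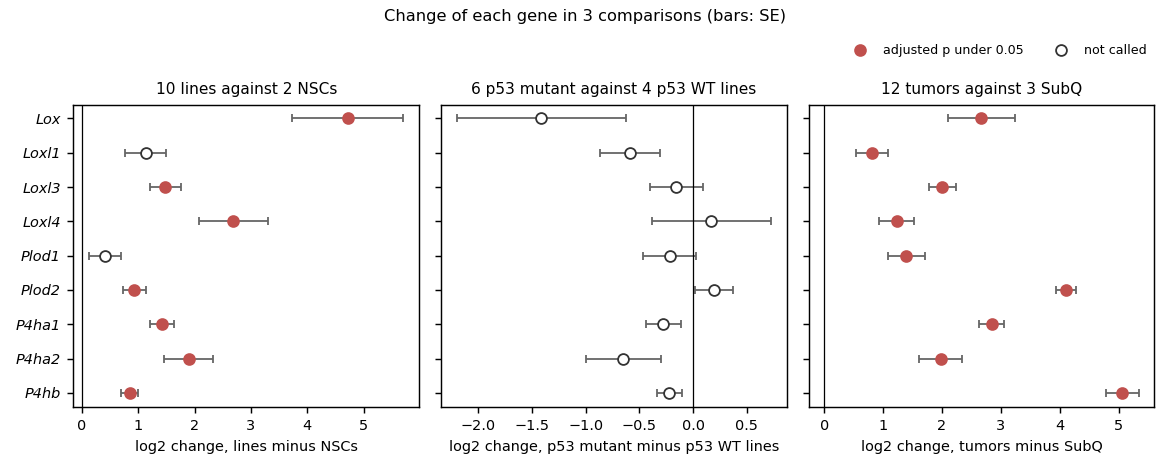
Change of each of the 9 genes (x axis, log2, a scale of its own in each panel) for lines minus NSCs, p53 mutant minus p53 WT lines, and tumors minus SubQ tissue, with bars of 1 SE. Filled points have an adjusted p under 0.05 by limma: 7, 0 and 9 genes.

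Over the 10 lines, the levels of several enzymes went together, which is a description over 10 arrays that share 1 normalization. Lox went most closely with Loxl1 (r = 0.83, Spearman rho 0.94, and r = 0.91 without the 2 lines farthest from the Lox median). P4hb went with Loxl1 (r = 0.83), Plod1 (0.82), P4ha2 (0.75) and Lox (0.74). Loxl4 ran against Plod1 (r = -0.76, and -0.62 without the 2 farthest lines) and had negative r with Lox (-0.48) and Loxl1 (-0.46). Over the 36 pairs r ran from -0.76 to 0.83 with a median of 0.23, and 25 pairs were positive. Plod2 had no r above 0.26 with any of the other 8 genes.

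**Figure D3:**
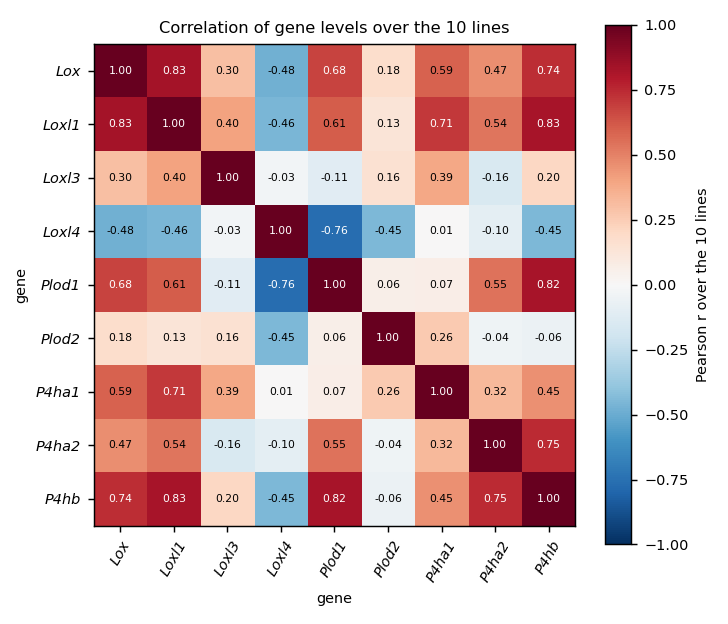
Pearson r of log2 levels over the 10 lines for each pair of the 9 genes (both axes), from -1 (blue) to 1 (red). Lox, Loxl1, Plod1, P4ha2 and P4hb form a block of positive values, while Loxl4 is negative against 7 of the other genes.

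The genes most like the 3 most variable enzymes were sought among the 9968 genes above the median level in the lines. For Lox they were Zfp827 (r = 0.96, and 0.91 without the 2 farthest lines), Dapp1 (0.95 and 0.71) and Gmds (0.94 and 0.79). For Loxl4 they were Nr2f2, a nuclear receptor gene (0.94 and 0.84), Gm10432 (0.91 and 0.68) and Socs5 (0.90 and 0.88). For P4ha2 they were 9530091C08Rik (0.94 and 0.59), Angpt2, a ligand of the Tie2 receptor (0.93 and 0.18), and Zfp385a (0.93 and 0.46). The likeness to P4ha2 thus rested on lines 119 and 331, the 2 farthest from its median.

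The third comparison set the tumors against normal subcutaneous tissue. All 9 enzymes were higher in tumors (limma), where 30.7% of all genes were called higher and 45.8% lower, and 8 of the 9, all but Loxl1, did not overlap with the probe sets used, as in 21.9% of all genes. The largest differences were those of P4hb (33.4-fold) and Plod2 (17.2-fold). The share called higher depended on level. Of 9968 genes above the median level 7153 were called, 82.6% of them higher, against 40.1% of all called genes. Tumor means of the 9 enzymes ran from 6.78 to 10.37, above the tumor array medians of 5.66 to 5.75. The median change of the 9 genes was 2.00 and that of all genes -0.28, which moved to -0.14 with arrays centred on their medians and to -0.11 after quantile normalization. The 12 tumors counted as separate samples in this fit, though they came from 4 lines (limma correlation within lines 0.38). The SEs and p-values of this comparison leave that out. Over the alternatives, which include line as a random block and line means, 7 to 9 enzymes were called. The adjusted p of Plod2 reached 1.0e-05 and that of P4hb 1.3e-05 there (limma). In such bulk samples fewer cells of a type and less RNA per cell cannot be told apart.

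P4hb lay at 4.90, 5.22 and 5.80 in SubQ tissue and at 9.53 to 11.26 in the tumors (median 10.35), a difference of 5.06 ± 0.28 SE (limma adjusted p = 2.5e-10). P4ha1 lay at 5.44 to 5.87 in the 3 SubQ samples and at 7.58 to 8.87 in the tumors (median 8.52), higher by 2.84 ± 0.21 SE (adjusted p = 5.8e-09). P4ha2 lay at 5.26 to 5.71 and at 6.49 to 8.68 (median 7.19), higher by 1.97 ± 0.37 SE (adjusted p = 0.00012). For each of these 3 subunit genes the lowest tumor thus exceeded the highest SubQ sample.

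Plod2 lay at 5.11, 5.25 and 5.55 in SubQ tissue and at 8.83 to 9.87 in the tumors (median 9.41). The difference was 4.10 ± 0.17 SE (limma adjusted p = 2.7e-11), and the tumor SD of 0.27 (n = 12) was the smallest of the 9 genes. Plod1 lay at 5.79 to 6.28 in SubQ tissue and at 6.58 to 8.39 in the tumors (median 7.40), higher by 1.39 ± 0.31 SE (adjusted p = 0.00066). Plod1 and Plod2 were thus both separated between tissue and tumors, Plod2 by the wider gap.

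Lox lay at 5.31, 6.61 and 6.84 in SubQ tissue and at 7.07 to 10.40 in the tumors (median 9.16), higher by 2.66 ± 0.57 SE (limma adjusted p = 0.00042). Loxl3 lay at 4.57 to 5.38 and at 6.49 to 7.60, higher by 2.00 ± 0.23 SE (adjusted p = 6.0e-07), and Loxl4 at 5.15 to 6.02 and at 6.19 to 7.84 (median 6.63), higher by 1.23 ± 0.29 SE (adjusted p = 0.0011). The second Loxl4 probe set overlapped, with 4.39 to 5.88 in SubQ tissue (mean 5.07) and 5.07 to 6.03 in the tumors (mean 5.35). Loxl1 overlapped, with 5.61 to 6.39 in SubQ tissue and 6.24 to 7.80 in the tumors, and its difference of 0.81 ± 0.28 SE was the smallest (adjusted p = 0.014). The call of Loxl1 ended after quantile normalization (0.62, adjusted p = 0.073), without SubQ replicate 2 (0.60, adjusted p = 0.11) and with separate weights for the tumor and SubQ arrays (adjusted p = 0.17), which also ended that of Loxl4 (adjusted p = 0.053). The adjusted p of Loxl1 ran from 0.0045 to 0.17 over the alternatives, and that of Loxl4 from 0.00055 to 0.053.

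The SubQ means of Loxl3 (5.04), Plod2 (5.30) and P4hb (5.31) lay under the 25th percentile of gene means there (5.38), and the SubQ arrays had the narrow range given above, so the sizes of these differences are uncertain. Beside them, macrophage markers rose in 9 of 10 cases in the tumors, led by Lyz2 (5.26) and Cd68 (2.83), and their list mean was 7.49 to 8.95 in tumors and 5.94 to 6.20 in SubQ tissue. Fibroblast markers rose in 7 of 10 cases, such as Pdgfra (2.21) and Pdgfrb (1.99), with list means of 7.96 to 9.01 and 6.97 to 7.46. Of the endothelial markers 4 of 10 rose, among them Emcn (2.18) and Cdh5 (1.76), and 1 fell, with list means of 5.98 to 7.20 in tumors and 5.66 to 5.81 in SubQ tissue. Of the mural cell markers 3 of 10 rose, including Acta2 (4.37), and 4 fell. Of 9 neural stem cell markers 2 rose, Vim (3.08) and Nes (1.35), and 4 fell. Their list means overlapped, at 5.68 to 6.53 in tumors and 5.79 to 6.05 in SubQ tissue. Adipocyte markers fell in 8 of 9 cases, skeletal muscle markers in 8 of 10 and keratinocyte markers in 5 of 9. Of all genes 30.7% were called higher and 45.8% lower. The neural stem cell and mural cell counts, the endothelial rises and the keratinocyte falls lay near these shares. The part of these cell types in the enzyme levels was not tested.

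Among the lists, 17 of 18 folding genes rose in tumors and none fell (median 2.25), led by Dnajc3 (2.68), Creld2 (2.67), Ero1a (2.65) and Hspa5 (2.59). In the hypoxia list 16 of 19 rose and 1 fell (median 1.14), with Pgk1 (4.47), Ldha (3.55), Bnip3 (3.11) and the histone demethylase gene Kdm3a (2.25) highest. Other collagen enzymes and chaperones had 12 of 22 higher and 3 lower, with the matrix protein gene Sparc (3.79), Pcolce (2.51), the propeptide protease gene Bmp1 (2.27) and the isomerase gene Ppib (2.11) highest. Of the collagen chains 9 of 25 were higher, such as Col12a1 (4.32), Col6a3 (2.33) and Col1a2 (1.93), and 10 lower, counts near the shares of all genes (30.7% and 45.8%). In the elastic fiber list 5 of 14 rose, also near the share of all genes called higher, led by Ltbp1 (3.02) and Fbln2 (2.46), and none fell.

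**Figure D4:**
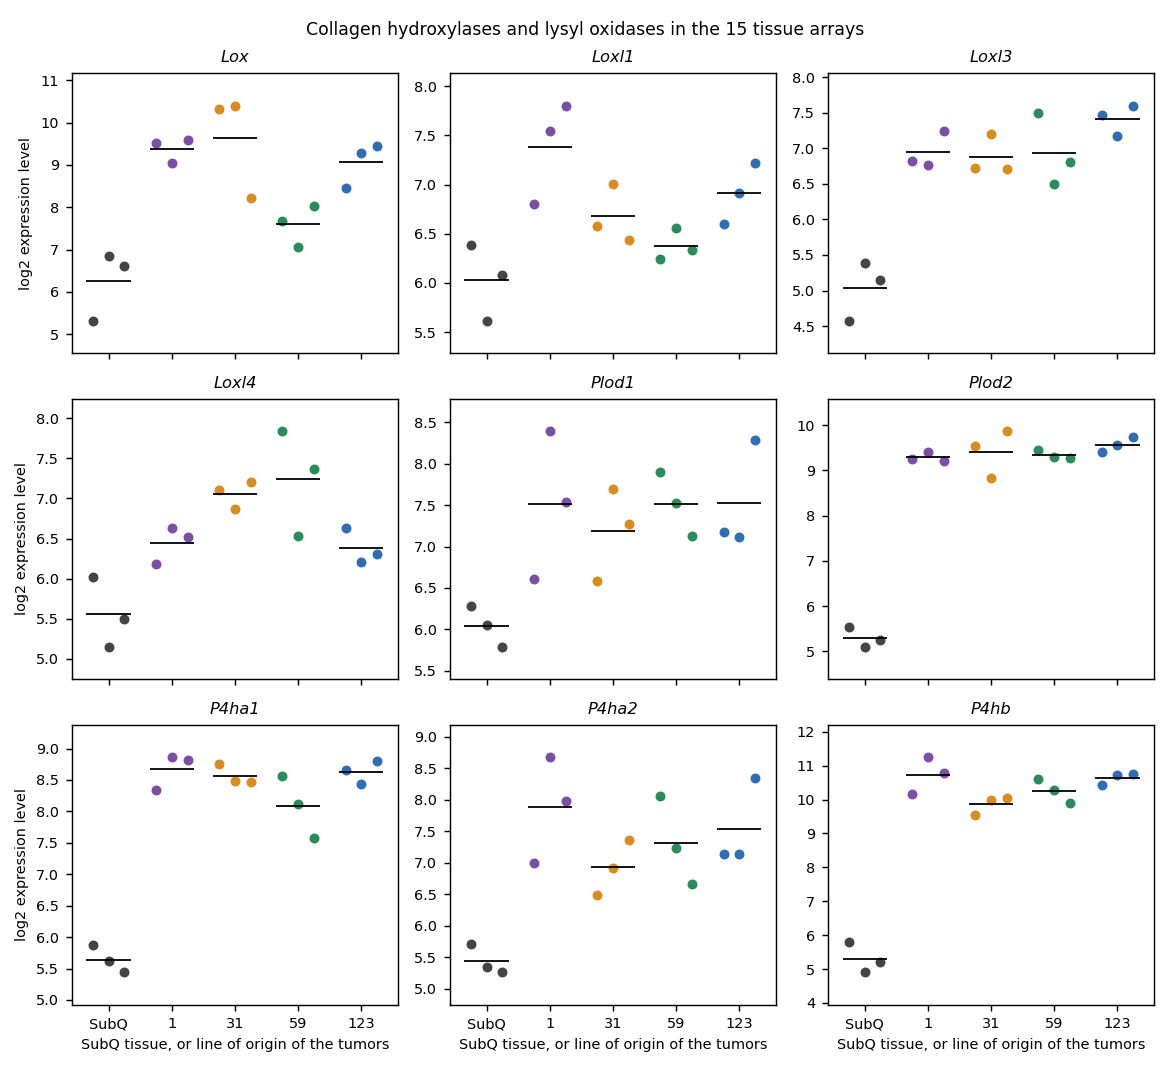
Log2 expression level (y axis, a scale of its own in each panel) of the 9 genes in 3 SubQ samples and in the tumors of lines 1, 31, 59 and 123 (x axis, 3 tumors each). Each point is 1 array and bars are group means. Lox is lowest in the line 59 tumors, and Plod2 differs little between lines.

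The tumor lines were then compared with each other. The moderated F test of limma called none of the 9 genes, against 5.07% of all genes, while 4 (Lox, Loxl1, Loxl4 and P4hb) had an unadjusted p under 0.05. Setting each line against the other 3 likewise gave no call in 36 tests by limma, of which 10 had an unadjusted p under 0.05. The 4 tests of a gene share the same line means. Shares of all genes with an unadjusted p under 0.05 were not counted, so the 4 and the 10 have no background. Of all genes 4.62% were called for line 1, 1.39% for line 31, 1.17% for line 59 and 0.848% for line 123 in these tests. The description below therefore gives levels whose order is uncertain.

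Lox lay at 7.07, 7.68 and 8.02 in the line 59 tumors and at 8.22, 10.32 and 10.40 in those of line 31. It lay at 9.04, 9.53 and 9.59 in line 1 and at 8.44, 9.29 and 9.45 in line 123. All 3 line 59 tumors were below the other 9, by -1.77 ± 0.40 SE on average (limma adjusted p = 0.061). Line 59 also had the second lowest Lox level of the 10 lines in culture, and the lowest of the 3 lines profiled both ways. The F test of Lox (adjusted p = 0.075) passed without the third line 31 tumor (adjusted p = 0.0014), with adjusted p between 0.0014 and 0.25 under the alternatives.

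Loxl1 was highest in line 1 (6.80, 7.55 and 7.80) and lowest in line 59 (6.24, 6.34 and 6.56), with F test adjusted p = 0.11 by limma. Loxl4 was at 6.54, 7.37 and 7.84 in line 59 and at 6.87, 7.11 and 7.20 in line 31, against 6.19 to 6.63 in line 1 and 6.21 to 6.63 in line 123 (adjusted p = 0.13). Its second probe set had means of 5.55 in line 59, 5.33 in line 1, 5.32 in line 31 and 5.20 in line 123, so the gap between lines 31 and 1 was seen with 1 probe set only. Line 123 also had less Loxl4 than lines 31 and 59 in culture (7.75 against 8.86 and 8.67). P4hb was lowest in line 31 (9.53 to 10.05) and highest in line 1 (10.15, 10.78 and 11.26, adjusted p = 0.17). The F test of limma called Loxl1 (adjusted p = 0.022) and P4hb (adjusted p = 0.048) without line 1 tumor 1, and Loxl4 without line 59 tumor 2 (adjusted p = 0.016). Beside these levels, the line 1 tumors had the highest fibroblast marker means (8.82 to 9.01, other lines 7.96 to 8.47) and endothelial marker means (6.95 to 7.20, other lines 5.98 to 6.55), and the lowest macrophage means (7.49 to 7.77, other lines 7.79 to 8.95). The part of these cell types was not tested. Plod2 means differed by at most 0.28 between the 4 lines (adjusted p = 0.79).

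The spread of the arrays moved with several of these levels. In each of the 4 tumor lines Plod1 was highest in the tumor with the largest SD over genes. It was lowest in the tumor with the smallest SD. The share of all genes highest in the widest array in all 4 lines was 5.62%, a count that leaves out the narrowest array. P4ha1, P4ha2 and P4hb were highest in the widest array in 3 of 4 lines and lowest in the narrowest in 3 of 4, and 8.57% of all genes reached at least 3 on both counts. After quantile normalization these counts stayed at 3 and 3 for P4ha2 and P4hb and were 2 and 3 for P4ha1, while Plod1 had 4 and 3. The shares of all genes were not counted after that normalization. Plod2 was highest in the widest array in 3 lines as deposited and in 1 after quantile normalization. In line 1, for example, the array SD was 1.63, 1.69 and 1.77 in tumors 1, 3 and 2, and Plod1 lay at 6.61, 7.53 and 8.39. Line 1 tumor 1 also had the highest adipocyte marker mean of the 12 tumors (7.44, others 5.24 to 6.30). With array SD as a covariate, chosen after the data were seen, P4ha1 was called between tumor lines (adjusted p = 0.045, and up to 0.65 under other settings). Array spread and adipocyte content were not tested further.

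**Figure D5:**
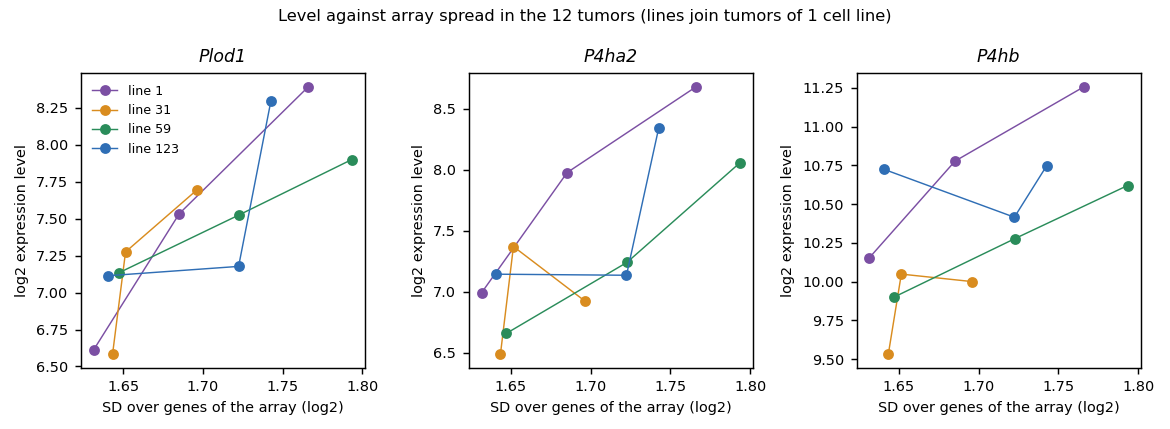
Log2 expression level (y axis) of Plod1, P4ha2 and P4hb against the SD over genes of each tumor array (x axis, log2 units), with 1 point per tumor and lines joining the 3 tumors of 1 cell line. Plod1 is highest in the widest array and lowest in the narrowest in each of the 4 lines.

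Lines 31, 59 and 123 were measured both in culture and as tumors, with 1 culture array each, so 9 tumors were set against their own line without a test. Cell and tissue arrays had different distributions, and the direction depended on the scaling. As deposited, all 3 tumors lay below their culture in each of the 27 pairs of gene and line, as did 94.7% of all genes in line 31, 95.5% in line 59 and 96.1% in line 123. After joint quantile normalization none did, and in 11 of the 27 all 3 tumors lay above it, 7 of 9 genes in line 123, 4 in line 59 and 0 in line 31, where all 3 tumors lay above in 30.6%, 29.6% and 28.4% of all genes, and below in 43.2%, 43.3% and 37.6%. On that scale Plod2 in line 123 differed most, at 8.99 in culture and 9.77 to 10.11 in the tumors, and Loxl3 lay above in lines 59 (6.66 against 6.83 to 7.79) and 123 (7.25 against 7.68 to 7.96).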

How the data were processed

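RNA was taken with Trizol and 100 ng per sample was labelled, per the labels' protocols. The deposited log2 levels were produced by the authors with RMA, per the submitters' processing notes, where GCOS and Affymetrix Expression Console are also named. No version, role or genome build was given in the sources used here. RMA shrinks differences near background, and no detection call was used. Cell and tissue arrays differed in distribution and were tested apart.

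The 21640 probe sets with exactly 1 gene were used, out of 34760, leaving aside 1321 with several genes and 11799 with no gene listed. The probe set with the highest mean stood for a gene (954 genes had several), giving 19937 genes. Entrez IDs of 21553 probe sets were found in RefSeq (GRCm38.p6).

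Tests used limma 3.58.1 (R 4.3.3), with 1 linear model per gene, eBayes and 2-sided p-values under Benjamini-Hochberg adjustment across the 19937 genes. Calls were made below an adjusted p of 0.05. Promoters came from RefSeq. Summaries and figures used Python 3.11.15, pandas 2.3.3, numpy 2.4.6, scipy 1.17.1 and matplotlib 3.10.9. The fits were tested on simulated data.

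The enzymes and gene lists were chosen with earlier results of these data known. All measured enzymes were named, up to 4 called genes of each list with the largest change, and the 3 genes most like each of the 3 most variable enzymes over the lines. Other genes were named after their values were seen, namely Plod3, Serpinh1, Sox2, Nes, Thy1, Lum, Dpt, Fap and Eln. Alternatives were other probe set, filter, variance and scaling choices, each replicate left out, subsets of lines, line as a random block or as means, and replicate numbers as a block.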

Additional observations from a re-analysis of the deposited data

Results flagged for a closer look

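Chance marks about 1 in 20 groups as holding an outlying sample by the test used (Dixon), and 27 groups were tested, with 3 found. Loxl4 in line 116 lay at 6.44, and the other 5 p53 mutant lines at 8.67 to 9.43. P4ha2 in line 119 lay at 10.67, and the other 9 lines at 8.49 to 9.57. Loxl3 in line 120 lay at 9.32, and the other 3 p53 WT lines at 8.43 to 8.56.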

How the results depend on the processing

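The counts of enzymes called kept within 1.5 times of 7 for lines against NSCs (7 or 8) except without an NSC array (3 to 8 over all samples left out), stayed at 7 to 9 for tumors against SubQ tissue (8 to 9 with samples left out) and at 0 for p53. Between tumor lines the count of 0 became 1 with array spread as a covariate and 0 to 2 with samples left out: Loxl1 and P4hb passed without line 1 tumor 1, Lox without line 31 tumor 3 and Loxl4 without line 59 tumor 2. With the replicate number as a block the counts were 7, 9 and 0, and no enzyme's call changed. For lines against NSCs only lines 3 and 28 share a replicate number with an NSC array. That fit thus compares those lines alone with the NSCs and does not test the result over all lines. The numbers did not pair the samples: among tumors of different lines, 3 of 18 pairs with the same number had a correlation of deviations over 0.1, and 14 of 36 with different numbers. For tumors against cultures, 11 pairs with all 3 tumors above became 0 with values as deposited and 10 with centred arrays, where 2 pairs, both in line 31, had all 3 tumors below. The p53 difference ranged from -0.25 to 0.048 for Loxl3 and from -0.13 to 0.59 for Loxl4 with lines left out, so its sign changed. Of all genes, 2992 were called in lines against NSCs and 1416 or 1402 without NSC replicate 1 or 2. Tumors against SubQ tissue gave 15256, and 7153 of 9968 with only genes above the median level, 82.6% of them higher against 40.1%. Between tumor lines 1010 became 578 with SubQ arrays in the fit and 469 to 1659 with tumors left out. For p53, 4 became 1 with genes above the median level, 8 with NSC arrays in the fit and 0 to 10 with lines left out. The causes were not tested.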
